A study of Nilaparvata lugens with 9 samples.

Results

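The candidate miRNAs described here are the predicted *N. lugens* sequences of 18 to 20 nt that were placed at a single locus. In the deposited table a predicted candidate carries the prefix PC, followed by the arm of the hairpin it comes from (5p or 3p). A name was taken when it began with PC, stood on exactly 1 entry and had a length of 18, 19 or 20 nt. This gave 129 of 562 candidate names (about 23%) and 129 of 767 names in all, with 22 names of 18 nt, 67 of 19 nt and 40 of 20 nt. Small RNA was sequenced from whole bodies of untreated short-winged female adults of the brown planthopper, *Nilaparvata lugens*, a sap-feeding pest of rice. There were 3 groups, namely insects 1 day (1 d), 3 days (3 d) and 5 days (5 d) after emergence, and each phase was sequenced in 3 libraries. Each sample pooled the RNA of several whole insects, so cell number and RNA per cell cannot be told apart, and no source states that the libraries of a phase came from separate rearings. The p-values below therefore measure the spread between these libraries only.

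MicroRNAs are short RNAs cut from one or both arms of a folded precursor, the hairpin, by the enzymes Drosha and Dicer. A strand loaded into an Argonaute protein represses messenger RNAs that pair with its seed, the bases 2 to 8 from the 5′ end, so that miRNAs with the same seed form a family. Typical animal miRNAs often begin with U (written T here), come from stable hairpins, and leave some reads from the opposite arm as well. In planthoppers and other insects miRNAs take part in moulting, wing development and egg production, and the days after emergence are those in which the ovary matures.

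Sequences described below are given 5′ to 3′ as the deposited table lists them, with the seed in capitals. The first set holds the 5 candidates with the highest mean level, on which most of the reads fell.
PC-5p-560_10877: aAGAAAGTatgcaagaact
PC-5p-1263_4489: cCACGTGCtgttggcatct
PC-3p-525_11854: tTTAATTAccctgagtggc
PC-3p-1819_3013: tCGGTAGGcgtgttacctct
PC-3p-1549_3538: gTCCCACCaggggtacca
The second set holds 3 of the candidates whose levels did not overlap between 2 phases in at least 1 comparison. Among the candidates given with values below, this also held for PC-3p-1819_3013, PC-3p-7013_939, PC-5p-42059_193, PC-5p-139494_46, PC-5p-141661_45 and PC-5p-142923_44. The share of all sequences without overlap was not counted, and the smallest exact permutation p for 3 libraries against 3 is 0.1. Lack of overlap is therefore a description of these libraries and is not read as a change between phases.
PC-5p-41317_196: aATTTGGCactgatagct
PC-3p-112229_61: gCGGAAACggaccatggaa
PC-3p-12814_573: tGTAGTATgtatttctcatc
The third set shows related sequences, which share a seed or lie inside each other.
PC-3p-7013_939: tTACTTTCacgatgattcca
PC-3p-13477_551: tTACTTTCacaatgattcc
PC-3p-184462_31: cTACTTTCacgatgattcc
PC-3p-33946_240: tTTAATTAccctgagatt
PC-5p-11173_639: aAGGTCGTtgttgttgtc
PC-5p-12224_595: gAAGGTCGttgttgttgtc
PC-3p-67921_113: tGACTAGAtccttacccaa
PC-5p-417132_7: tTGCATTGtaattgcattgc

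The 9 libraries held between 972506 and 3184052 reads on the listed miRNAs. The smallest, 1 d replicate 2, also stood apart in what it held of these candidates, so results that rest on it are given with and without it. The smallest value above 0 anywhere in the table was 2.5 reads, and the smallest among candidates with only whole counts was 5, so a sequence listed at 0 may still have had a few reads. Fitted fold changes against a phase listed at 0 depend on the prior count of the model, so none is printed for a single candidate. Counts of 15 of the 129 candidates were not whole, because the authors split reads between entries that match the same read. Levels below are normalized read counts (CPM, reads on a sequence scaled to the size of the library with TMM factors), and each is given with its SD where a mean is printed.

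Most of the 129 candidates were rare. They took 69491.5 reads in all, which was 0.359% of the reads on all miRNAs and 3.35% of the reads on candidate names. The median candidate had 27 reads over the 9 libraries (quartiles 9 and 83), 34 candidates had fewer than 10 reads and 27 had 100 or more. The mean level over the 9 libraries had a median of 1.50 CPM (quartiles 0.500 and 4.63), and 5 candidates reached 100 CPM. The 5 candidates with the most reads held 77.8% of the reads and the first 10 held 88.0%. In the classes of expression that the authors assigned, 1 candidate was high, 81 were middle and 47 were low. By length, the median of the mean level was 5.24 CPM at 18 nt, 0.938 CPM at 19 nt and 1.66 CPM at 20 nt.

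Few of the candidates were found throughout. Reads were listed in all 9 libraries for 20 candidates and in a single library for 49. The candidates listed in a single library had a median of 8 reads, and 15 of these 49 were listed in 5 d replicate 1 and 11 in 5 d replicate 3. The number of candidates with reads was 53, 49 and 42 at 1 d, 61, 39 and 57 at 3 d, and 86, 63 and 53 at 5 d. The largest number was in 5 d replicate 1, which held 2537885 reads, and the deepest library, 3 d replicate 3, had 57 candidates with reads. How these numbers relate to depth was not tested. At least 1 read in each library of the phase was listed for 29 candidates at 1 d, 28 at 3 d and 32 at 5 d. The count at 5 d was 52 without 5 d replicate 3, and 20 candidates met the condition in all 3 phases.

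The share of all reads that fell on the candidates was 0.233%, 1.57% and 0.173% at 1 d, 0.630%, 0.197% and 0.226% at 3 d, and 0.421%, 0.403% and 0.242% at 5 d. The phases overlapped, and 1 d replicate 2 was the highest library by far. The means were 0.657% ± 0.788, 0.351% ± 0.242 and 0.355% ± 0.0988 (SD, n = 3 each), and an exact permutation test over the 280 groupings of the libraries gave p = 0.979. Between pairs of phases the 2-sided exact permutation p was 0.8 for 3 d vs. 1 d and 1 for 5 d against either earlier phase, where the smallest that 3 libraries against 3 allow is 0.1. The difference of 3 d vs. 1 d was -0.306 percentage points with all libraries and 0.149 without 1 d replicate 2, and that of 5 d vs. 1 d was -0.302 with all libraries and 0.153 without it.

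**Figure D1:**
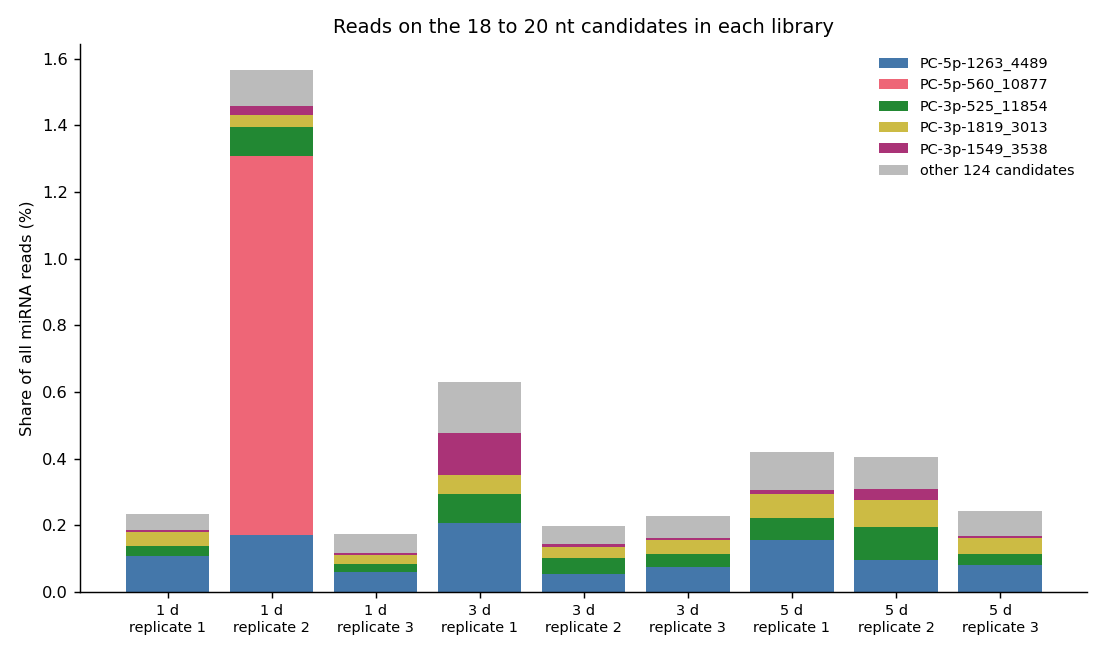
Share of all miRNA reads (%, vertical axis) that fell on the 129 candidates in each of the 9 libraries (horizontal axis), stacked by the 5 candidates with the most reads and the other 124. The bar of 1 d replicate 2 reaches 1.57%, most of it from PC-5p-560_10877, which has no part in any other bar.

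PC-5p-560_10877 was the most abundant of the candidates by its mean and yet was listed in only 1 library. It had 11061 reads (13603 CPM) in 1 d replicate 2 and 0 in the other 8 libraries, so it made up 72.6% of the candidates' reads there. It was not tested for change between phases, since the filter on low counts asks for reads in several libraries. Without this sequence the share of reads on the candidates in 1 d replicate 2 was 0.429%, and the differences were 0.0732 percentage points for 3 d vs. 1 d (exact permutation p = 0.7) and 0.0773 for 5 d vs. 1 d (exact permutation p = 0.5). Its hairpin of 64 nt had a predicted free energy of -16.5 kcal/mol, near the weak end of those listed, and its first base differed from the precursor (T1A, the precursor base first, counted from the 5′ end of the mature sequence). PC-3p-143456_44, chosen after its values were seen, had 52 reads in the same library and 0 elsewhere. In all, 70 candidates had at least 50% of their reads in 1 library, and 2 of these had 100 reads or more, namely PC-5p-560_10877 and PC-3p-58178_135.

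The other abundant candidates were present in every library. PC-5p-1263_4489, with 19857 reads the most sequenced of the set, stood at 1137, 2044 and 649 CPM at 1 d, 1775, 526 and 713 CPM at 3 d, and 1485, 916 and 809 CPM at 5 d. Its phases overlapped fully, and the log2 fold change of 5 d vs. 1 d was -0.25 (SE 0.54, edgeR adjusted p = 0.921). This direction turned to 0.23 without 1 d replicate 2. PC-3p-525_11854 stood at 304, 1028 and 258 CPM at 1 d, 724, 485 and 373 CPM at 3 d, and 633, 938 and 307 CPM at 5 d. The highest library of each phase was 724 CPM or more and the lowest was 373 CPM or less, and 5 d vs. 1 d gave a log2 fold change of 0.24 (SE 0.59, edgeR adjusted p = 0.93). With a library left out it was between -0.27 and 1.11.

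PC-3p-1549_3538 varied most between libraries among these abundant candidates with reads in every library. Its values were 60.2, 323 and 47.8 CPM at 1 d, 1064, 63.6 and 45.9 CPM at 3 d, and 112, 295 and 52.7 CPM at 5 d. A single library led each phase, and the mean at 3 d, 391 ± 583 CPM (SD, n = 3), had an SD larger than itself. PC-3p-1819_3013 was the steadiest of the 5, with 457, 449 and 296 CPM at 1 d, 503, 348 and 401 CPM at 3 d, and 692, 783 and 497 CPM at 5 d. All 3 libraries of 5 d were above all 3 of 1 d, and 2 of the 3 were above all of 3 d. The log2 fold change was 0.71 for 5 d vs. 1 d (SE 0.30, edgeR adjusted p = 0.408) and 0.66 for 5 d vs. 3 d (SE 0.30, edgeR adjusted p = 0.992), and neither passed the threshold.

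**Figure D2:**
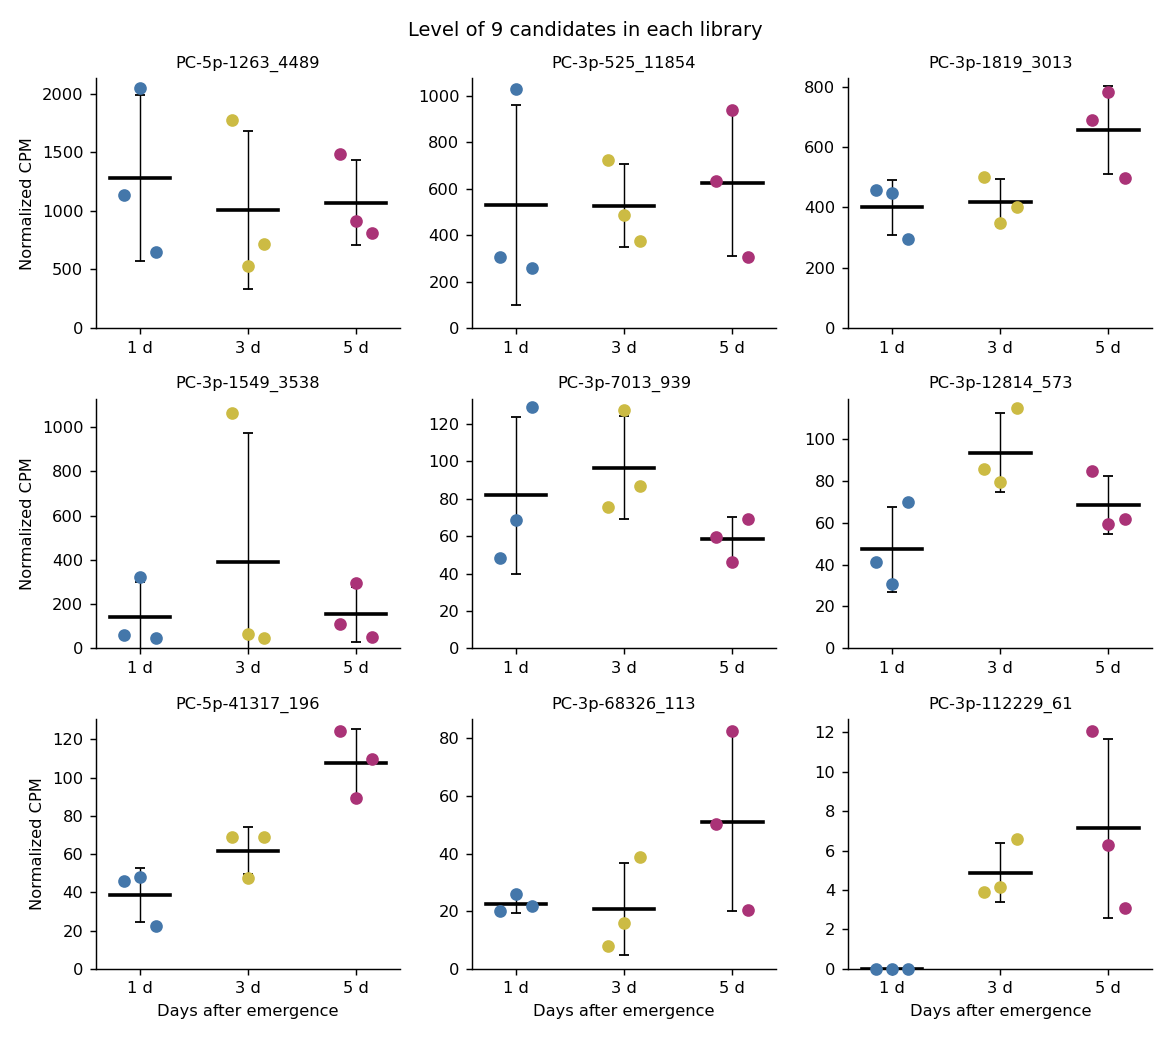
Normalized CPM (vertical axis, own scale in each panel) of 9 candidates in the 9 libraries, by days after emergence (horizontal axis); points are libraries, wide lines are means and thin bars are 1 SD (n = 3), cut at 0. PC-5p-41317_196 lies highest in the 5 d libraries (89.4 to 124 CPM), PC-3p-112229_61 is listed at 0 in all 1 d libraries, and PC-3p-1549_3538 has a single library at 1064 CPM.

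The arms were used about equally. There were 60 candidates from the 5p arm (46.5%, 95% Wilson interval 38.1% to 55.1%) and 69 from the 3p arm, against 43.9% from the 5p arm among the 223 single-locus candidates of 21 to 23 nt and 53.8% among the 130 of 24 to 26 nt. By length, 10 of 22 candidates of 18 nt, 35 of 67 of 19 nt and 15 of 40 of 20 nt came from the 5p arm. The median of the mean level was 1.32 CPM for the 5p candidates and 1.75 CPM for the 3p candidates. Summed over candidates, the 5p arm had 3022 CPM and the 3p arm 1741 CPM, and the difference rested on PC-5p-560_10877, whose mean level over the 9 libraries was 1511 CPM.

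The hairpins of the short candidates were predicted to be less stable than those of longer candidates. The free energy (dG) had a median of -22.0 kcal/mol (quartiles -28.9 and -18.3, range -91.2 to -15.0), against -34.2 kcal/mol at 21 to 23 nt, -28.9 kcal/mol at 24 to 26 nt and -38.8 kcal/mol for candidates listed at several loci. The highest value of -15.0 is where the table ends, since the authors kept no hairpin above it. Between that limit and -20 kcal/mol lay 50 of the 129 short candidates (38.8%), against 10.8%, 11.5% and 13.8% in these 3 other classes. Hairpin length did not set them apart, with a median of 86 nt both here and at 21 to 23 nt. Paired bases made up a median of 73.7% of the short mature sequences, against 77.3% at 21 to 23 nt, and the precursor contained a median of 35.4% C and G, against 40.2%. These are descriptions of predicted sequences and not of replicates, so no test was made.

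Within the set the free energy differed little by arm and length. It had a median of -20.9 kcal/mol on the 5p arm and -22.8 kcal/mol on the 3p arm, and of -23.9, -21.0 and -24.1 kcal/mol at 18, 19 and 20 nt. PC-5p-4868_1263 had the most stable hairpin, at -91.2 kcal/mol over 148 nt. The 41 candidates with enough reads for a test had a median of -22.3 kcal/mol, and the other 88 had -21.9 kcal/mol.

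**Figure D3:**
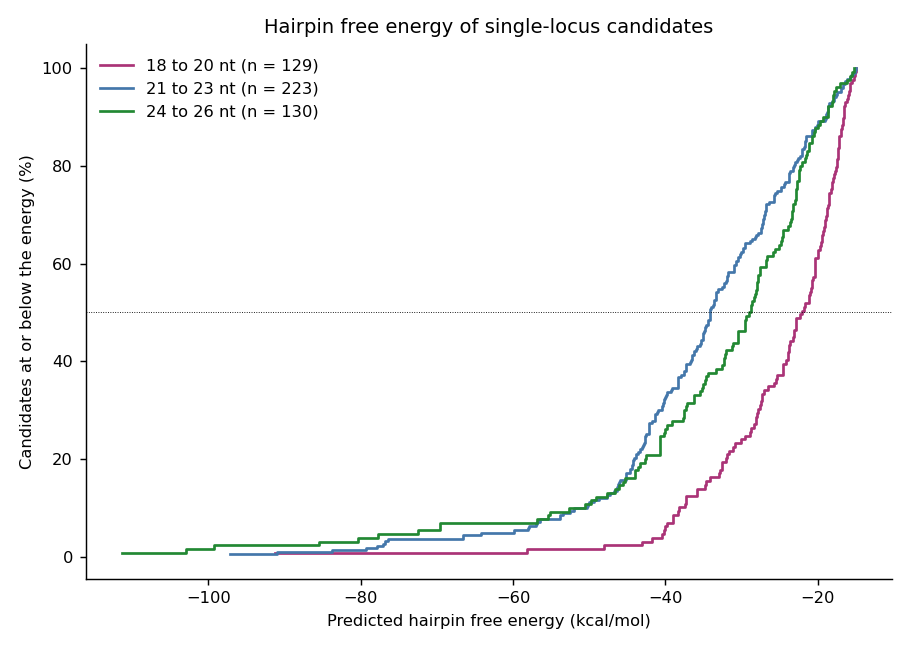
Cumulative share of single-locus candidates (%, vertical axis) by predicted hairpin free energy (kcal/mol, horizontal axis) for lengths of 18 to 20 nt (n = 129), 21 to 23 nt (n = 223) and 24 to 26 nt (n = 130); the dotted line marks the median. The curve of the short candidates lies to the right, with a median of -22.0 kcal/mol against -34.2 and -28.9 kcal/mol.

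Most of the short candidates were not identical to the genome at their own locus. The mature sequence of 90 of the 129 (69.8%) differed by 1 base from the precursor listed beside it and 39 were exact, against 32.7% with a difference at 21 to 23 nt, 30.0% at 24 to 26 nt and 25% among candidates listed at several loci. No candidate of any class differed by more than 1 base. The share was 59.1% at 18 nt, 83.6% at 19 nt and 52.5% at 20 nt, and was between 23.1% and 47.7% at each length of 21 to 26 nt. In 22 of the 90 the difference lay in the seed, and in 23 it lay in the last 3 bases. PC-5p-1263_4489 differed at T18C, PC-3p-525_11854 at T19C, PC-3p-68326_113 at T18A and PC-3p-112229_61 at A12C. PC-3p-1819_3013, PC-3p-1549_3538, PC-5p-41317_196 and PC-3p-12814_573 were exact.

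Exact candidates and the others stood apart in features that the rule did not use. The 39 exact candidates had a median free energy of -27.4 kcal/mol, a median of 68 reads and T as the first base in 59.0%. The 90 with a difference had -20.8 kcal/mol, 22.5 reads and T first in 31.1%. Over all 129 candidates the first base was T in 51 (39.5%), A in 45 (34.9%), G in 23 and C in 10, while T was first in 53.8% at 21 to 23 nt, 76.9% at 24 to 26 nt and 65.0% among candidates at several loci. Weighted by reads, T was first in 37.9% of the short candidates' reads, against 88.8% of those at 21 to 23 nt. These read shares rest on few sequences. Of the 69491.5 reads on the short candidates, PC-5p-1263_4489 (C first) had 19857. PC-5p-560_10877 (A first) had 11061, all in 1 library. At 21 to 23 nt a single candidate had 709129 of 1.46e+06 reads.

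**Figure D4:**
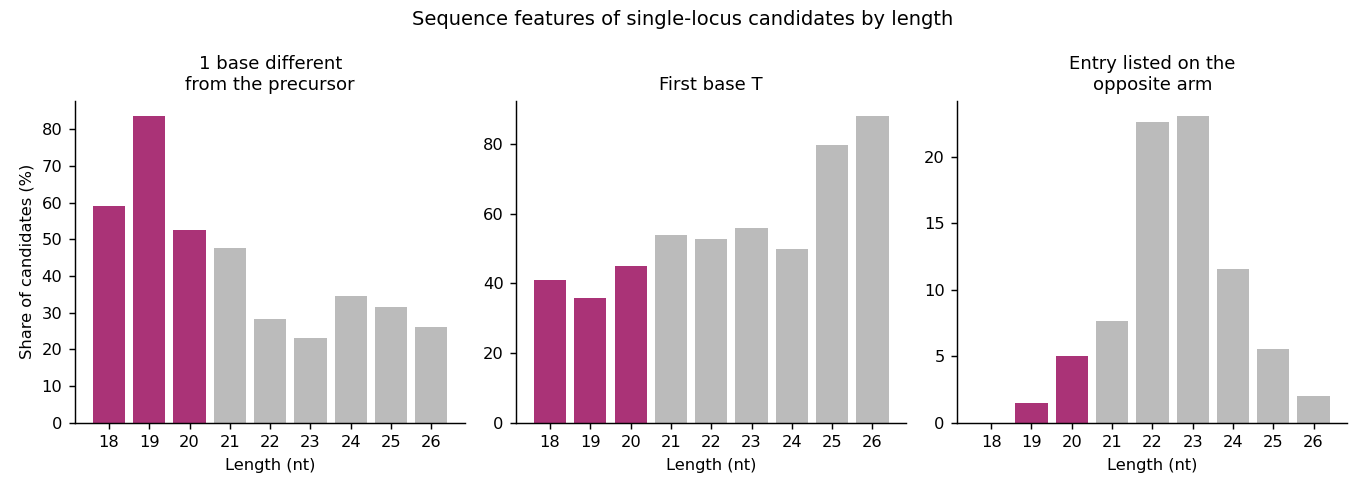
Share of single-locus candidates (%, vertical axes) by length in nt (horizontal axes) that have 1 base different from the precursor, begin with T, or have an entry on the opposite arm of the same precursor; the lengths of 18 to 20 nt are coloured. The share with a base difference is highest at 19 nt (83.6%), and the share with an opposite arm is 0 at 18 nt and 23.1% at 23 nt.

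A sequence from the opposite arm was listed for 3 of the 129 candidates (2.33%), against 18.4% at 21 to 23 nt, 5.38% at 24 to 26 nt and 17.5% among candidates at several loci. PC-3p-67921_113 had 100.5 reads and its opposite arm PC-5p-60288_130 had 65. PC-3p-345403_11 had 16 reads beside 115 of PC-5p-66851_115, and PC-5p-417132_7 had 12 reads beside 824 of PC-3p-15330_496. The short sequence was thus the more abundant arm in 1 of the 3 pairs. In that pair the counts of PC-3p-67921_113 were not whole and PC-5p-60288_130 was listed at several loci, so the order of the 2 arms is uncertain.

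Only 2 of the candidates shared a seed with a known miRNA of the table. PC-3p-67921_113 carried GACTAGA, the seed of the miR-279 and miR-996 family, which in *Drosophila* limits the formation of CO2-sensing neurons. It was contained in PC-3p-9407_736 and PC-3p-28469_285, which were listed with 435.5 and 365.5 reads. Its levels were 1.88, 9.84 and 8.04 CPM at 1 d, 10.4, 8.27 and 1.80 CPM at 3 d, and 0.754, 10.0 and 1.24 CPM at 5 d, and the phases overlapped. PC-5p-417132_7 carried TGCATTG, the seed of miR-33, which in *Drosophila* acts in fat metabolism, and the known entry aae-miR-33_R-1 (gTGCATTGtagttgcattgc) had 16 reads. PC-5p-417132_7 was listed only in 5 d replicates 1 and 2, at 1.88 and 2.92 CPM, and at 0 in the other 7 libraries. PC-5p-126155_53 (53 reads) shared no seed with a known miRNA but contained the whole known entry bmo-miR-2779_L-2_1ss13AG (1185 reads). These 2 had 18 bases in common, and PC-5p-126155_53 began 1 base earlier.

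Among themselves the candidates were mostly unrelated, with 120 different seeds in 129 sequences. In 17 candidates the seed was shared with another of the set, and 23 candidates had a stretch of at least 13 bases in common with another entry of the table. The largest group had the seed TACTTTC and held PC-3p-7013_939, PC-3p-13477_551 and PC-3p-184462_31, with 1536.5, 1325.5 and 51.5 reads. Their counts were not whole, so reads were split between near-identical entries and their separate levels are uncertain. PC-3p-7013_939 stood at 59.5, 45.9 and 69.4 CPM at 5 d, against 75.4, 128 and 87.1 CPM at 3 d, and these phases did not overlap. Its log2 fold change of 5 d vs. 3 d was -0.73 (SE 0.44, edgeR adjusted p = 0.992), which missed the threshold. At 1 d it stood at 48.2, 68.9 and 129 CPM, which overlapped both later phases. The log2 fold change of 5 d vs. 1 d was -0.50 (SE 0.44, edgeR adjusted p = 0.773). PC-3p-13477_551 stood between 33.1 and 99.7 CPM with overlap of all phases.

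The seed TTAATTA joined the abundant PC-3p-525_11854 with PC-3p-33946_240, and also with PC-3p-2603_2159 (2082.5 reads), which was listed at several loci. PC-3p-525_11854 shared 18 bases with PC-3p-2603_2159 and 15 with PC-3p-33946_240. Counts of PC-3p-525_11854 were not whole, so its separate level is uncertain. PC-5p-11173_639 lay inside PC-5p-12224_595 and their precursors started 969 bases apart on the same strand of a scaffold. They had 936.5 and 297.5 reads, and both were highest in 1 d replicate 2, 3 d replicate 1 and 5 d replicate 3 and lowest in 3 d replicates 2 and 3. Counts of both were not whole. PC-5p-11173_639 stood at 24.1, 130 and 24.9 CPM at 1 d, 148, 4.65 and 7.80 CPM at 3 d, and 60.7, 44.3 and 108 CPM at 5 d.

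The candidates were scattered over 123 scaffolds of the genome. Of the 129, 8 had another precursor start within 10000 bases, against 75 of 223 at 21 to 23 nt. The count was also low at 24 to 26 nt, with 16 of 130, and was 27 of 80 among candidates at several loci. PC-3p-1819_3013 lay 2092 bases from PC-5p-387_16479 on the same strand. As the table lists them, PC-3p-1819_3013 started at 245674 on the plus strand of scaffold NW_019106560.1, PC-5p-41317_196 at 743312 on the minus strand of NW_019105589.1, and PC-3p-112229_61 at 259 on the minus strand of NW_019122105.1. No assembly build is named in the sources read here, so no gene annotation was placed beside these positions.

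Change between phases could be tested for 41 of the 129 candidates, which were among the 341 sequences that passed the filter on low counts. These 41 had between 35 and 19857 reads. With all 341 sequences in 1 edgeR model, no candidate passed an adjusted p of 0.05 in 3 d vs. 1 d, where the share called over all tested sequences was also 0.0%. None passed when 5 d was set against 1 d (1.47% of all tested sequences were called) or against 3 d (0.0%), nor across the 3 phases (1.17%). At an unadjusted p below 0.05 2 candidates were higher at 3 d than at 1 d (2.93% of all tested sequences), 4 were higher at 5 d than at 1 d (4.99%), and 0 were higher at 5 d than at 3 d (1.47%). The first were PC-3p-12814_573 and PC-3p-112229_61, and the others were PC-3p-1819_3013, PC-5p-41317_196, PC-3p-112229_61 and PC-3p-162887_37. There were 0 lower candidates in the 3 comparisons, where the shares over all tested sequences were 5.57%, 6.45% and 0.88%, and across the 3 phases 2 candidates reached this level (8.21%). In 3 d vs. 1 d DESeq2 called 1 of the 41 candidates, where it called 1.76% of all tested sequences. Across the 3 phases it called 1 (3.52% over all, with 119 sequences given no adjusted p). For 5 d vs. 1 d it called 2 (3.81% over all) and limma called 1 (1.17% over all), and for 5 d vs. 3 d DESeq2 called 0 (0.587% over all). In edgeR without the filter, with all 129 candidates among 759 sequences, 2 were called for 3 d vs. 1 d (2.5% over all), 2 for 5 d vs. 1 d (3.43%), 0 for 5 d vs. 3 d (0.264%) and 4 across the 3 phases (3.56%), and these included PC-5p-560_10877 and PC-3p-143456_44, each listed in 1 library.

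The fold changes of the tested candidates lay around 0. For 3 d vs. 1 d they had a median of 0.09 on the log2 scale, beside 0.06 over all 341 sequences. With 5 d as the later phase the medians were 0.24 against 1 d (0.05 over all) and 0.28 against 3 d (-0.04 over all). Each comparison had 24 positive and 17 negative values. The comparisons with 1 d include 4 candidates listed at 0 in all 1 d libraries. With these set to the fold against a floor of 3 reads per library, the medians were 0.06 for 3 d vs. 1 d (23 positive and 18 negative) and 0.24 for 5 d vs. 1 d (24 and 17). Without these 4 the medians were 0.06 and 0.13, with 20 positive and 17 negative values in both. Both of these settings were chosen after seeing the data. The median biological coefficient of variation between libraries was 0.925 for the tested candidates, against 0.551 over all tested sequences, these candidates included. The comparison was not matched for level.

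**Figure D5:**
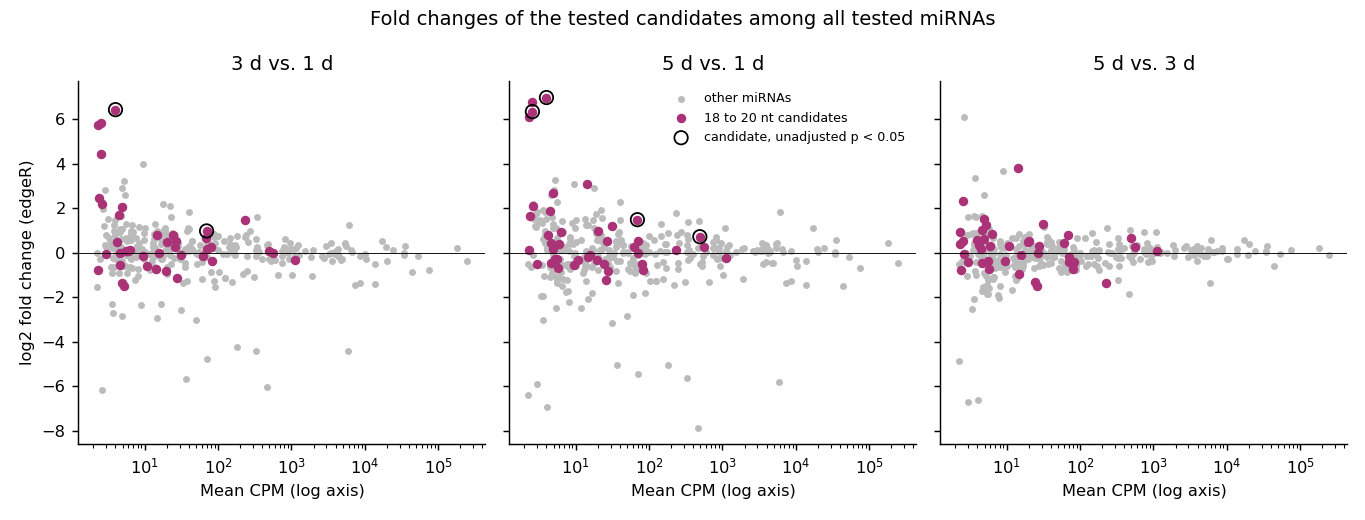
Fitted log2 fold change (vertical axis) against mean CPM over the 9 libraries (horizontal axis, log scale) for the 341 tested sequences in the 3 pairs of phases; coloured points are the 41 tested candidates and rings mark those with an unadjusted edgeR p below 0.05. The ringed candidates, 2, 4 and 0 in the panels, are all above 0, and none passed the adjusted threshold; fitted values of the 4 candidates listed at 0 in all 1 d libraries depend on the prior count.

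PC-5p-41317_196, an exact 18 nt sequence from a hairpin of -38.4 kcal/mol, separated 5 d from both earlier phases. It stood at 45.9, 48.0 and 22.5 CPM at 1 d, 68.9, 47.5 and 68.7 CPM at 3 d, and 124, 89.4 and 110 CPM at 5 d. The 5 d libraries lay above all others, and 1 of the 3 d libraries fell within the range of 1 d. The means were 38.8 ± 14.1, 61.7 ± 12.3 and 108 ± 17.6 CPM (SD, n = 3 each), and an exact permutation test over the 280 groupings gave p = 0.00714 before adjustment for the number of sequences. The log2 fold change was 1.48 for 5 d vs. 1 d (SE 0.40, edgeR adjusted p = 0.181) and 0.80 for 5 d vs. 3 d (SE 0.39, edgeR adjusted p = 0.992). DESeq2 gave an adjusted p of 0.00749 for 5 d vs. 1 d and 0.0196 across the 3 phases, and over all alternatives the adjusted p of 5 d vs. 1 d was between 0.00749 and 0.472. A similar candidate, PC-5p-204088_26, shared 17 bases with it and had 26 reads.

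PC-3p-112229_61 was listed at 0 in all 1 d libraries. It stood at 3.90, 4.13 and 6.60 CPM at 3 d and 12.1, 6.27 and 3.10 CPM at 5 d, from 88 reads in all. The later phases overlapped each other but not 1 d. Of the 129 candidates, 56 were listed at 0 in all 1 d libraries, 46 in all 3 d libraries and 19 in all 5 d libraries. In 1 d replicate 2, the smallest library, 5 reads stood at 6.15 CPM. Levels such as 3.90 or 4.13 CPM could therefore be listed there at 0. A count of 5 reads stood at 1.88 CPM in 1 d replicate 1 and at 2.01 CPM in 1 d replicate 3, below all levels of PC-3p-112229_61 at 3 d and 5 d. Whether its lack of overlap with 1 d rests on this floor was not tested. The edgeR adjusted p was 0.406 for 3 d vs. 1 d and 0.125 for 5 d vs. 1 d, and the exact permutation p across the 3 phases was 0.025 before adjustment. This candidate was named partly for its small edgeR p on the same values, so the permutation p is not separate support. For 5 d vs. 1 d it was called by DESeq2 (adjusted p = 0.00278) and limma (adjusted p = 0.0373), and DESeq2 also called it for 3 d vs. 1 d (adjusted p = 0.0245). Over the alternatives the adjusted p was between 0.0245 and 0.917 for 3 d vs. 1 d and between 0.00278 and 0.430 for 5 d vs. 1 d.

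Other low candidates were also listed at 0 in all 1 d libraries but less regularly later. PC-3p-162887_37 stood at 0, 7.75 and 1.80 CPM at 3 d and 9.04, 4.59 and 0 CPM at 5 d. PC-5p-235947_21 stood at 4.55, 0 and 4.5 CPM at 3 d and 8.67, 2.92 and 0 CPM at 5 d. Both still had libraries at 0 in the later phases, so these overlapped 1 d. The smaller edgeR adjusted p of the comparisons with 1 d was 0.408 for PC-3p-162887_37 and 0.426 for PC-5p-235947_21, both in 5 d vs. 1 d. PC-5p-139494_46 did not pass the filter and stood at 11.1, 3.10 and 0 CPM at 3 d and 6.03, 2.92 and 3.10 CPM at 5 d.

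PC-3p-12814_573 was highest at 3 d. It stood at 85.8, 79.6 and 115 CPM in the 3 d libraries, against 41.4, 30.7 and 70.0 CPM in the 1 d libraries, with no overlap. The 5 d libraries, at 84.4, 59.3 and 61.9 CPM, overlapped both. The log2 fold change of 3 d vs. 1 d was 0.97 (SE 0.40, edgeR adjusted p = 0.512), and its adjusted p was between 0.247 and 0.993 over the alternatives. It shared 19 bases with PC-5p-193856_28, a longer candidate of 118 reads. Its counts were not whole, so part of its reads were split between entries and its separate level is uncertain.

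PC-5p-142923_44 ran the other way and was highest at 1 d, from 37.5 reads in all. It stood at 4.52, 4.92 and 2.81 CPM at 1 d, 0, 1.55 and 1.20 CPM at 3 d, and 2.26, 0 and 1.86 CPM at 5 d. Neither later phase overlapped 1 d, but the smallest exact permutation p for 3 libraries against 3 is 0.1, and the sequence did not pass the filter for edgeR. The study also measured this sequence by quantitative PCR (qRT-PCR), on the same total RNA samples as its libraries. It reported the same trend as in its sequencing, with fold changes of a different degree. Since the RNA was the same, the qRT-PCR is a separate method but not a separate set of insects. The sequence shared its first 19 bases with PC-5p-191217_29 and its whole length with PC-5p-64263_121, a candidate of 25 nt with 129 reads, and its counts were not whole.

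The other candidates with the smallest p or on the study's own list did not pass the edgeR threshold in any comparison. PC-3p-68326_113 stood at 50.1, 82.7 and 20.4 CPM at 5 d, against 7.80, 16 and 38.7 CPM at 3 d, with a log2 fold change of 1.28 (SE 0.67, edgeR adjusted p = 0.992). It was 2.10 without 3 d replicate 3 and 0.75 without 5 d replicate 2, the ends of its range with 1 library left out. PC-3p-58178_135 had 103 CPM in 5 d replicate 1 and at most 12.0 CPM in the other libraries, so 81.0% of its reads came from 1 library. PC-5p-4868_1263 stood at 36.2, 116 and 27.9 CPM at 5 d, against 69.3, 181 and 66.3 CPM at 1 d, with a log2 fold change of -0.80 (SE 0.67, edgeR adjusted p = 0.76). It was -0.21 without 1 d replicate 2 and -1.79 without 5 d replicate 2, again the ends of its range. PC-5p-42059_193 stood at 6.41, 7.52 and 6.19 CPM at 5 d, against 2.60, 0 and 4.20 CPM at 3 d, with no overlap but an edgeR adjusted p of 0.992. At 1 d it stood at 9.04, 4.92 and 4.02 CPM, which overlapped both later phases. Its log2 fold change of 5 d vs. 1 d was 0.15 (SE 1.11, edgeR adjusted p = 0.986). PC-5p-141661_45 had 5.65, 4.59 and 0 CPM at 5 d, against 0, 0 and 2.01 CPM at 1 d, with an edgeR adjusted p of 0.722. PC-3p-1819_3013, PC-3p-12814_573, PC-5p-41317_196, PC-5p-42059_193, PC-3p-112229_61, PC-5p-141661_45, PC-5p-139494_46 and PC-5p-142923_44 are on the list of changed miRNAs that was drawn up from these same libraries, so their presence on it is not independent evidence of a direction.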

How the data were processed

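Small RNA of 9 whole-body samples was measured. Reads were cleaned by the authors with the program ACGT101-miR, reads from repeats and from other kinds of RNA were discarded, and sequences of 18 to 26 nt were matched to the precursors in miRBase 22.0 and to the planthopper genome, whose flanking sequence was folded with RNAfold to find hairpins (neither the genome build nor a version of RNAfold is named in the sources read here). The deposited raw columns hold estimated counts of reads, partly split between entries, and the deposited normalized columns hold a signal, the raw reads times 1 factor per library set by the authors. The table also holds, as deposited, the free energy score and the percent of C and G of each precursor.

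Identical sequences were counted once (759), the estimated counts were rounded, and edgeR 4.0.16 (TMM, default filter by phase, legacy quasi-likelihood F-test, R 4.3.3) was fitted on all 9 libraries with phase as the only term. Adjusted p-values (Benjamini-Hochberg) cover all 341 sequences tested, SE is the absolute log2 fold change divided by the square root of F, and tests are 2-sided. Exact permutation tests of the share of reads used the percent of raw reads in each library. Those of a single candidate used log2(CPM + 1) across the phases and CPM between pairs of phases. DESeq2 1.42.0, limma 3.58.1 on log2(CPM + 1), other scalings, filters and left-out libraries were alternatives. Precision is set by depth, 972506 to 3184052 reads, and the Wilson interval covers counting error only. The code of the edgeR test was run on simulated data with large planted changes only, which does not show how well small changes are found.

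The candidates and lists were chosen with earlier results of these data known. Named were the 10 with the highest mean level, the 4 with the smallest edgeR p in each pairwise comparison, the 8 on the study's list, and up to 6 of each kind of sequence relation. Both names that the rule also leaves out have 23 and 22 nt, so nothing was lost by that. The protocol in the labels describes a poly(A) mRNA library and was not used for these small RNA data.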

Additional observations from a re-analysis of the deposited data

How the results depend on the processing

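Candidates called at an adjusted p below 0.05 numbered 0 in the 3 pairs of phases and across the 3 phases under edgeR with other scalings, a filter of 10 CPM, distinct names, a newer estimator and each library left out, and 0 in the 3 pairs with 6 libraries only and with a limit on the fold change. These last 2 settings were not run across the 3 phases. DESeq2 called 1 for 3 d vs. 1 d (1.76% of all tested sequences), 2 for 5 d vs. 1 d (3.81%) and 1 across the 3 phases (3.52%), and limma called 1 for 5 d vs. 1 d (1.17%). Without a filter, with 129 candidates among 759 sequences, edgeR called 2, 2 and 4 in these (2.5%, 3.43% and 3.56% of all sequences), which included PC-5p-560_10877 and PC-3p-143456_44, each listed in 1 library, and the last also PC-3p-58178_135 and PC-3p-1549_3538. The candidates with an unadjusted p below 0.05 without a filter numbered 10 for 3 d vs. 1 d, 11 for 5 d vs. 1 d, 4 for 5 d vs. 3 d and 9 across the 3 phases. With a filter of 10 CPM there was 1 in the first, second and last of these. With 6 libraries only they numbered 0, 2 and 3 in the 3 pairs. In 5 d vs. 3 d they numbered 2 with DESeq2, 1 with limma, 1 with the size factors of DESeq2, 2 with the authors' factors, 1 with distinct names and 2 with a newer edgeR estimator, which was added after seeing the data. With a library left out, they numbered 1 to 6 in 3 d vs. 1 d (6 without 3 d replicate 1), 2 to 5 in 5 d vs. 1 d, 0 to 4 in 5 d vs. 3 d (4 without 3 d replicate 1) and 1 to 5 across the 3 phases. The cause of these moves was not tested.

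The share of reads on the candidates, as a difference in percentage points, was -0.548 to 0.149 for 3 d vs. 1 d, -0.544 to 0.153 for 5 d vs. 1 d and -0.0731 to 0.144 for 5 d vs. 3 d with a library left out. On candidate reads only, 5 d vs. 3 d was -0.308. Without PC-5p-560_10877, chosen after seeing the data, 3 d vs. 1 d was 0.0732 and 5 d vs. 1 d was 0.0773. The median CPM over the candidates differed by 0 for 3 d vs. 1 d and by 1.13 for 5 d vs. 1 d. With 1 read in any library, 73, 83 and 110 candidates counted as detected in the youngest, middle and oldest phase. With reads required in each library of the phase, as in the report (29, 28 and 32), leaving out a replicate number gave 30 to 36, 31 to 39 and 33 to 52. The 5p share was 37.5% at 20 nt. The log2 fold change of PC-3p-13477_551 in 5 d vs. 1 d, -0.04, turned to 0.0907 with limma, 0.16 with library totals, 0.0766 with the authors' factors, 0.0251 without a filter, 0.0245 with 6 libraries and 0.0131 with the replicate block. With a library left out it ran from -0.39 to 0.22, and that of PC-3p-1549_3538 from -0.91 to 1.46, PC-3p-525_11854 from -0.27 to 1.11, PC-5p-11173_639 from -0.29 to 1.54, PC-5p-1263_4489 from -0.72 to 0.23 and PC-5p-42059_193 from -0.15 to 0.57.

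The replicate numbers were not taken to pair the libraries, since deviations of same-numbered libraries correlated above 0.1 in 5 of 9 pairs only (range -0.39 to 0.42, with 7 of 9 positive). All 3 pairs of replicate 3 were positive, between 0.24 and 0.37. With the replicate number as a block, 0 candidates were called, and those with an unadjusted p below 0.05 numbered 2 for 3 d vs. 1 d, 4 for 5 d vs. 1 d, 1 for 5 d vs. 3 d and 3 across the 3 phases. Adding back the names left out by the rule could give no other value, as neither has 18 to 20 nt. The 88 candidates that were not tested had a median of 14 reads (5 to 11061).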
